A study of Mus musculus with 3 samples.

Results

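Mitochondria are joined and divided by a small set of dynamin-like GTPases and their partners, and their DNA is packaged and transcribed by proteins encoded in the nucleus. The genes described here are 10 of these factors, chosen by gene name: Mfn1, Mfn2 and Opa1 for fusion, Dnm1l, Fis1 and Mff for fission, Pink1 for mitophagy, and Tfam, Tfb1m and Tfb2m for mitochondrial DNA (mtDNA). All 10 had a row in each library, out of 23376 gene symbols. Levels are in FPKM, which are fragment numbers per kilobase of transcript at a common depth. A mean over the libraries of 1 FPKM or more counted as expressed, which 12151 symbols reached, 9 of the 10 genes among them. Pink1 was under that level.

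ICR mice, an outbred stock, gave the oocytes, from females aged 8 weeks. There was 1 library for each group: a control with no exposure, a low dose and a high dose of PCB118, a chlorinated biphenyl. The labels give no amounts, and the title of the series places the exposure in pregnancy and concerns the oocytes of the offspring. The number of oocytes or females behind a library is not given in the sources used here. With 1 library per group there was no replicate check and no test, so each statement describes these libraries. Differences are log2 ratios of FPKM + 1, a scale that understates the change of low genes. The words higher and lower are kept for ratios of 2-fold or more, 1 on the log2 scale.

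As background, mitofusins tether and fuse the outer membrane, and Opa1 fuses the inner membrane and holds the cristae. Division is carried out by Dnm1l (DRP1), a cytosolic GTPase that receptors such as Mff recruit to the outer membrane. Oocytes hold many small, round mitochondria, which are the source of the embryo's mtDNA. In bulk RNA, fewer cells of a type and less RNA per cell cannot be told apart.

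The depth was read from the lowest values of FPKM times transcript kilobases. Their most crowded narrow window gave a first worth of 1 read. Close to it, the worth that put most values near whole multiples was chosen. Of rows worth 1.5 to 6.5 reads, 55.0% (control), 41.8% (low dose) and 45.6% (high dose) lay within 0.1 of a whole number. Evenly spread values would give 20%, but the worth of 1 read was fitted to these rows, so the 2 shares are no test. The chosen worth placed the depth at about 34800000 (control), 28000000 (low dose) and 31600000 (high dose) reads. Where 3 values follow with no label they are in that order. A read here may be a read pair, since the read layout is not given in the sources used. Of 17 oocyte markers, 16 were expressed, with summed levels of 12292 FPKM in control, 9494 FPKM at the low dose and 10702 FPKM at the high dose. Single oocyte markers lay further apart than these sums: at the low dose 2 of the 16 passed the rule upward and 2 downward, and at the high dose 1 and 2. Gdf9, a growth factor that oocytes secrete, was at 660.7, 38.5 and 192.8 FPKM, and Mos, a kinase of meiotic arrest, at 9.36, 177.9 and 8.57 FPKM. Of 12 granulosa and cumulus markers 8 had a row, and these summed to 25.1, 27.8 and 23.8 FPKM, 3 of 10 blood and immune markers to 1.87, 0.69 and 1.94 FPKM, and 5 of 7 endothelial markers to 6.29, 11.1 and 7.21 FPKM. The theca and stroma markers, 8 of 11 with a row, summed to 3.96, 11.7 and 2.45 FPKM, so these 3 sums, of theca, endothelial and granulosa markers, were highest in the low dose library. The theca sum was carried by Cyp11a1 (3.55, 7.51 and 0.44 FPKM) and Lhcgr (0.085, 3.86 and 1.61 FPKM), while the stroma marker Dcn was at 0.16, 0.011 and 0.045 FPKM and the granulosa marker Nr5a2 at 17.0, 13.2 and 10.6 FPKM. The part of these markers, oocyte markers included, in any result was not tested. The granulosa markers Amh and Foxl2 and the globins Hba-a1 and Hbb-bs were without a row of that name in the tables used here.

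At the low dose, 2 of the 9 expressed genes passed the 2-fold rule: Tfb2m was higher and Fis1 was lower than in control. At the high dose 1 did so, Opa1, which was higher than in control. Tfb2m counted as expressed only through its low dose level (0.33, 3.63 and 0.55 FPKM), the same value that gave its call. Of all 12151 expressed symbols, 20.4% passed the rule at the low dose (14.5% higher, 5.84% lower) and 14.7% at the high dose (9.51% higher, 5.18% lower), so these counts were near the background and are no result about the genes as a group. The other 6 expressed genes (Mfn1, Mfn2, Dnm1l, Mff, Tfam and Tfb1m) stayed within 2-fold of control at both doses on the scale of FPKM + 1. By FPKM alone, Mfn1 at the high dose was at 0.48 of its control level, past 2-fold. For the 9 genes the median log2 ratio to control was 0.12 (low dose) and 0.10 (high dose), beside 0.17 and 0.08 over all expressed symbols. A trimmed mean scaling brought the medians of all symbols to -0.01 (low dose) and 0.00 (high dose), and the 3 calls held under it, with log2 ratios of 1.62 for Tfb2m, -1.61 for Fis1 and 1.36 for Opa1. Higher genes made up 71.3% of all calls at the low dose as deposited and 58.7% under that scaling.

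**Figure D1:**
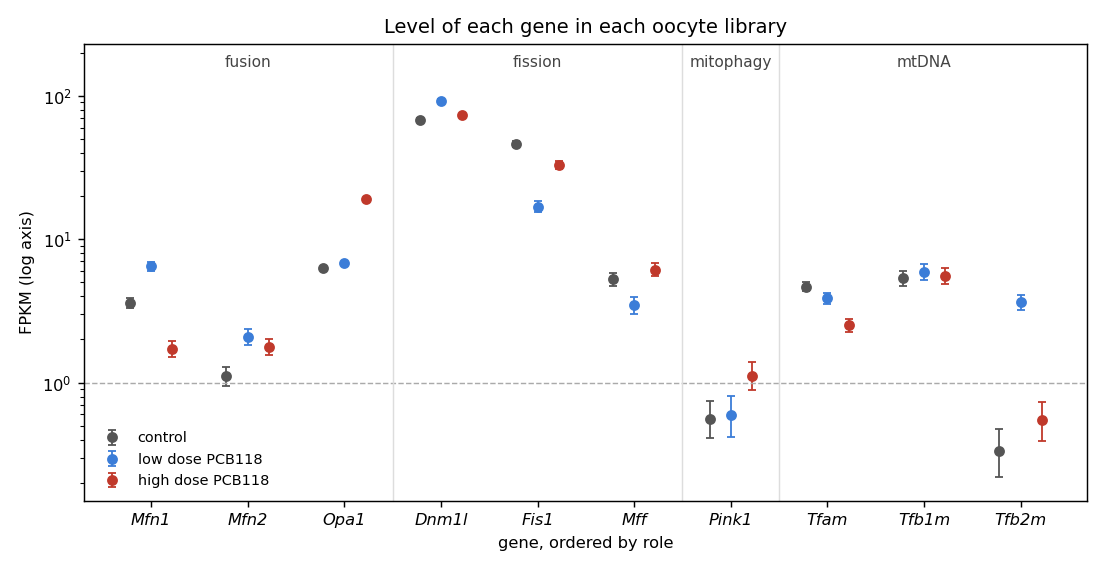
FPKM of the 10 genes (log axis), 1 point per library, control, low dose and high dose from left to right. Bars are 95% Poisson intervals from estimated read numbers and cover counting error only. Opa1, whose second row has no known length, carries none. Dnm1l lay highest in each library, Fis1 was lowest at the low dose, Opa1 was highest at the high dose, and Tfb2m stood above 1 FPKM at the low dose alone.

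The stretches upstream of the transcription start are shown for the 3 genes that passed the rule, since nuclear genes for mitochondrial factors are known as a class to carry sites of NRF1 and of the ETS factor GABPA. The sequences are those of RefSeq on GRCm38.p6, 5′ to 3′ on the gene's strand, 250 bases up to the start. They are chr16:29579084-29579333 on the plus strand for Opa1, chr5:136953025-136953274 on the plus strand for Fis1 and chr1:179546277-179546526 on the minus strand for Tfb2m. Capitals mark matches to GCATGCGC, a core of the NRF1 motif, or to CCGGAAG, an ETS core, searched on both strands.
Opa1: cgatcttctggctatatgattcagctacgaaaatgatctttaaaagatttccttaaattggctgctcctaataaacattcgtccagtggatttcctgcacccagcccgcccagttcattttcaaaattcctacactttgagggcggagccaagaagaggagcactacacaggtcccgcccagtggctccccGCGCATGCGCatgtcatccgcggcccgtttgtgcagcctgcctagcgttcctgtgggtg
Fis1: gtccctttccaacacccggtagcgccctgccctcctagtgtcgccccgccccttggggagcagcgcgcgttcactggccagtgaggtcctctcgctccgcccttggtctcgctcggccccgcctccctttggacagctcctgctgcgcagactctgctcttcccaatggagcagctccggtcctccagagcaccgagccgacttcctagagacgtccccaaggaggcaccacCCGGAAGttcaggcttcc
Tfb2m: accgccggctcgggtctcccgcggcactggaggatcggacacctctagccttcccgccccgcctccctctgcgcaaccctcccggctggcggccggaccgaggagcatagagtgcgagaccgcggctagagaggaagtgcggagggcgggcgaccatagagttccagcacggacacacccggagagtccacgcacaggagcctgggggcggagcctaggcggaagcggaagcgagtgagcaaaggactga
The capitals in Opa1 are 2 overlapping matches to the NRF1 core, the first of them 59 bases before the start. Those in Fis1 are 1 match to the ETS core, which begins 18 bases before the start. Tfb2m had its NRF1 match 13 bases after the start, outside the stretch shown. Windows of 300 bases (250 before to 50 after a start) were found for all 10 genes. Genes with several starts have several windows, 15 in all. The NRF1 core was present in 2 of the 15, of Opa1 and Tfb2m, and in 2.71% of the 32851 windows of all genes. The ETS core was present in 5 of the 15, of Mfn1, Dnm1l, Tfam and both starts of Fis1, and in 8.86% of all windows. A match describes these letters and is neither a site nor a cause.

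Among the fusion genes, the mitofusin Mfn1 had the widest range, its highest level being 3.75 times its lowest. Mfn1 (chromosome 3, 32529465 to 32579239, plus strand, GRCm38; 18 exons in the longest coding transcript) was at 3.62 FPKM in control, 6.46 FPKM at the low dose and 1.72 FPKM at the high dose. It was thus highest at the low dose and lowest at the high dose. Both of its log2 ratios to control missed the rule, 0.69 (low dose) and -0.76 (high dose). By FPKM alone the high dose level was 0.48 of that of control. About 570, 830 and 250 reads would stand behind the levels on a transcript of 4562 bases, and the 95% Poisson intervals, 3.32 to 3.92, 6.03 to 6.92 and 1.52 to 1.95 FPKM, did not overlap. Here and below, such intervals cover counting error only and hold no spread between animals or libraries. Between the exposed libraries Mfn1 passed the rule, at 1.72 FPKM in the high dose library against 6.46 FPKM in the low dose library (log2 ratio -1.45).

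Mfn2, the second mitofusin, which also tethers mitochondria to the endoplasmic reticulum, lies on chromosome 4 (147873599 to 147904704, minus strand). It was at 1.11 FPKM in control, 2.09 FPKM at the low dose and 1.78 FPKM at the high dose. Both exposed libraries were above control, with log2 ratios of 0.55 and 0.40 that missed the rule. Within a library, the level of Mfn1 over that of Mfn2 was 3.26 (control), 3.09 (low dose) and 0.97 (high dose), so Mfn1 stood above Mfn2 in the control and low dose libraries and just under it in the high dose library. This ratio does not depend on scaling between libraries.

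Opa1 (chromosome 16, 29579334 to 29654884, plus strand) was listed in 2 rows with neighbouring assembler numbers, and its call rested on the second of them. Their sum was 6.27 FPKM in control, 6.82 FPKM at the low dose and 19.0 FPKM at the high dose, with log2 ratios to control of 0.11 (-0.09 under trimmed mean scaling) and 1.46. The sum was thus high in the high dose library alone. The first row was at 2.87, 4.05 and 3.29 FPKM. The second row was at 3.40, 2.77 and 15.7 FPKM. Taken alone at the high dose, the first row had a log2 ratio of 0.15, under the rule, and the second one of 1.92. The second row held 54.3% of the Opa1 level in control, 40.7% of it at the low dose and 82.6% of it at the high dose.

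The values of that second row had at most 6 decimals in each library. In the control library, 99.8% of annotated rows above 0 of genes with 1 transcript were written so. Of assembled rows above 0 of genes with several transcripts, 30.5% were, again in control. The first Opa1 row had 14 decimals in each library. The tables give neither length nor place for the second row, and whether it holds Opa1 mRNA was not tested. Against the low dose library, the high dose library was higher in summed Opa1 (log2 ratio 1.35), while the first row alone gave -0.23. The 95th percentile of all expressed symbols at the high dose was 1.46, as far out as summed Opa1.

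**Figure D2:**
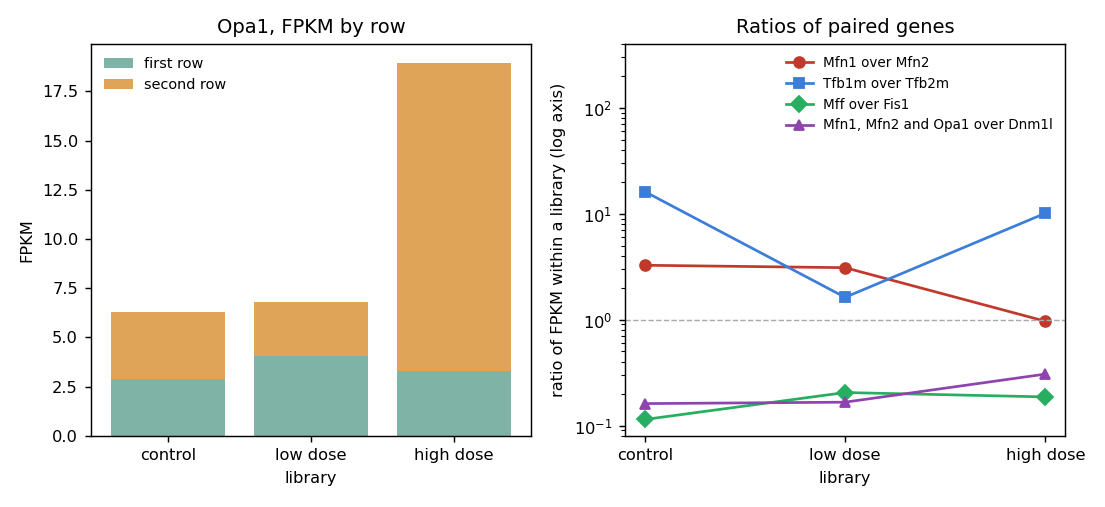
Left, FPKM of the 2 Opa1 rows stacked by library: the second row is 15.7 FPKM at the high dose, and the first lies between 2.87 and 4.05 FPKM in the 3 libraries. Right, ratios of FPKM within each library (log axis): Mfn1 over Mfn2 falls to 0.97 in the high dose library, and Tfb1m over Tfb2m to 1.62 in the low dose library.

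Among the fission genes, Dnm1l was the most abundant of all 10 in each library. Dnm1l (chromosome 16, 16312230 to 16358959, minus strand, 19 exons) was at 68.3 FPKM in control, 92.6 FPKM at the low dose and 73.5 FPKM at the high dose. It stood above 93.3, 94.4 and 93.4% of expressed symbols in those libraries. Its log2 ratios to control were 0.43 and 0.10, and trimmed mean scaling left 0.21 and 0.00. Dnm1l made up 48.2, 65.0 and 50.7% of the summed FPKM of the 10 genes, a sum that was 141.6, 142.3 and 144.8 FPKM. The antisense gene Gm49521 overlaps the start of Dnm1l, and no row of that name was used here.

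Fis1, a tail-anchored protein of the outer membrane first known as a fission receptor in yeast, was the gene lower at the low dose. Fis1 (chromosome 5, 136953275 to 136966234, plus strand, 5 exons) was at 46.2 FPKM in control, 16.9 FPKM at the low dose and 33.00 FPKM at the high dose. The low dose library was thus lowest and the high dose library in between. The low dose library had 0.37 of the control level (log2 ratio -1.40), and the high dose library 0.71 of it (log2 ratio -0.47, under the rule). If its reads lay on the longest coding transcript of 948 bases, about 1500, 450 and 990 reads stood behind these values in control, low dose and high dose. The 95% Poisson interval of the low dose level, 15.4 to 18.5 FPKM, then lay apart from that of control, 43.9 to 48.5 FPKM, an interval for counting error only. A log2 ratio of -1.08 marked the lowest 5% of all expressed symbols at the low dose, and Fis1 was below it.

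Mff, the main outer membrane receptor of Dnm1l in mammals, was at 5.27 FPKM in control, 3.46 FPKM at the low dose and 6.15 FPKM at the high dose (chromosome 1, 82724890 to 82752394, plus strand). It was lowest at the low dose, as Fis1 was, but within 2-fold (log2 ratio -0.49, and 0.19 at the high dose). The level of Mff over that of Fis1 was 0.11 (control), 0.20 (low dose) and 0.19 (high dose). The start of Mff overlaps C430014B12Rik on the opposite strand (1.44, 2.05 and 0.88 FPKM), and since the strand setting is not given, reads of the overlap cannot be told apart.

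The summed level of the fusion genes Mfn1, Mfn2 and Opa1 over that of Dnm1l was 0.16 (control), 0.17 (low dose) and 0.31 (high dose). Without the second Opa1 row it was 0.11, 0.14 and 0.09, so the high dose library then stood lowest.

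Pink1, the kinase that accumulates on damaged mitochondria and marks them for mitophagy, was under 1 FPKM in the control and low dose libraries. Its levels were 0.55 FPKM in control, 0.59 FPKM at the low dose and 1.12 FPKM at the high dose (chromosome 4, 138313409 to 138326307, minus strand). About 46, 39 and 84 reads would stand behind them on a transcript of 2375 bases. The high dose level was 2.02 times that of control, with a log2 ratio of 0.45 on the scale of FPKM + 1. Its 95% Poisson interval, 0.89 to 1.38 FPKM, lay above those of the low dose, 0.42 to 0.80 FPKM, and of control, 0.41 to 0.74 FPKM. These intervals cover counting error only. The gene failed the filter on low values and enters no count.

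**Figure D3:**
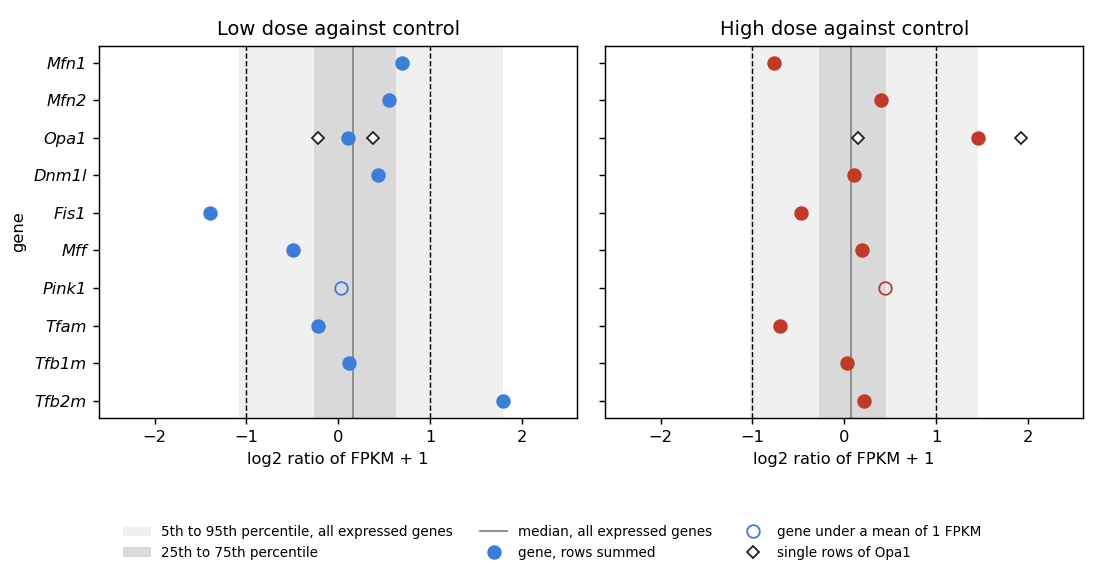
Log2 ratios of FPKM + 1 to control for the 10 genes, low dose on the left and high dose on the right. Grey bands span the 5th to 95th and 25th to 75th percentiles of all expressed symbols, dashed lines mark 2-fold, and diamonds are the single Opa1 rows. Tfb2m (1.80) and Fis1 (-1.40) lie past the lines at the low dose and Opa1 (1.46) at the high dose, where its first row lies at 0.15.

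Among the mtDNA factors, Tfb2m differed most. Tfb2m, which opens the mtDNA promoter with the mitochondrial RNA polymerase, lies on chromosome 1 (179528055 to 179546267, minus strand, 8 exons). It was at 0.33 FPKM in control, 3.63 FPKM at the low dose and 0.55 FPKM at the high dose, high in the low dose library alone. The low dose level was 10.95 times that of control by FPKM, and the log2 ratio was 1.80. A pseudocount of 0.1 FPKM gave 3.11, and one of 5 FPKM gave 0.70, under the rule.

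On its coding transcript of 2449 bases, about 28, 250 and 42 reads would stand behind the Tfb2m levels in control, low dose and high dose. The 95% Poisson intervals were 0.22 to 0.48 FPKM in control, 3.19 to 4.11 FPKM at the low dose and 0.39 to 0.73 FPKM at the high dose. The low dose interval lay apart from the other 2, and those of control and the high dose overlapped, for counting error only. In the high dose library Tfb2m was at 0.55 FPKM against 3.63 FPKM in the low dose library (log2 ratio -1.58). The 95th percentile of all expressed symbols at the low dose was also 1.80, so 5% of them lay beyond Tfb2m. Tfb2m is among those symbols only through its low dose level, the value compared here. The gene body holds the processed pseudogene Gm15480 on the opposite strand, for which no row of that name was used here.

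Tfb1m, the relative of Tfb2m that methylates the small ribosomal RNA of mitochondria, was the steadiest of the 10. It was at 5.36 FPKM in control, 5.90 FPKM at the low dose and 5.52 FPKM at the high dose (chromosome 17, 3519256 to 3557781, minus strand). Its log2 ratios to control were 0.12 and 0.04 (-0.07 and -0.05 under trimmed mean scaling), and its highest level was 1.10 times its lowest. Its far end overlaps Tiam2 on the opposite strand, which was at 3.60, 6.99 and 5.21 FPKM. Tfb1m over Tfb2m was 16.2 (control), 1.62 (low dose) and 10.1 (high dose).

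Tfam, the protein that coats and bends mtDNA and takes part in its transcription, was at 4.68 FPKM in control, 3.87 FPKM at the low dose and 2.50 FPKM at the high dose (chromosome 10, 71225464 to 71238280, minus strand). The order was control, low dose, high dose from the highest down. Its log2 ratios to control, -0.22 and -0.70, missed the rule. About 680, 450 and 330 reads would stand behind the 3 levels on a transcript of 4167 bases.

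In the control library the order of the genes by FPKM was Dnm1l, Fis1, Opa1, Tfb1m, Mff, Tfam, Mfn1, Mfn2, Pink1 and Tfb2m. The 95% Poisson intervals of the neighbours Tfb1m (4.73 to 6.05 FPKM), Mff (4.75 to 5.82 FPKM) and Tfam (4.34 to 5.05 FPKM) overlapped. So did those of Pink1 (0.41 to 0.74 FPKM) and Tfb2m (0.22 to 0.48 FPKM). Counting error alone thus left the order among these neighbours, and between Pink1 and Tfb2m, unsettled. Opa1 had no interval. The median of the 10 genes was 4.97, 4.88 and 4.01 FPKM, beside 4.63, 5.63 and 5.19 FPKM for all expressed symbols. The 10 genes include Pink1, which failed the filter that the expressed symbols passed.

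The high dose library was also set against the low dose library. Opa1 was higher and Mfn1 and Tfb2m were lower, 3 of 9 expressed genes, beside 15.8% of all expressed symbols (6.1% higher, 9.73% lower). Tfb2m counted as expressed only through its low dose level, a value compared here. The Opa1 call rested on its second row, and the first row alone gave -0.23. The count is thus no result about the genes as a group. Fis1 was at 33.00 FPKM in the high dose library against 16.9 FPKM in the low dose library, a log2 ratio of 0.92 that passed the rule under trimmed mean scaling (1.02). These comparisons and those with control share libraries, so they are not independent.

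Other genes of the same processes were followed in 6 lists with 102 genes, of which 75 were expressed. At the low dose 10 were higher and 4 lower than in control, or 18.7%, beside 20.4% of all expressed symbols. At the high dose 3 were higher and 5 lower, or 10.7%, beside 14.7%. Their median log2 ratio was 0.09 (low dose) and -0.04 (high dose). Trimmed mean scaling left 5 genes higher at the low dose (Mtfr1, Rhot1, Bcl2l13, Slirp and Pprc1), and Pld6 (0.98), Senp5 (0.86), Mief1 (0.85) and Lonp1 (0.82) were among those that then missed the rule.

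**Figure D4:**
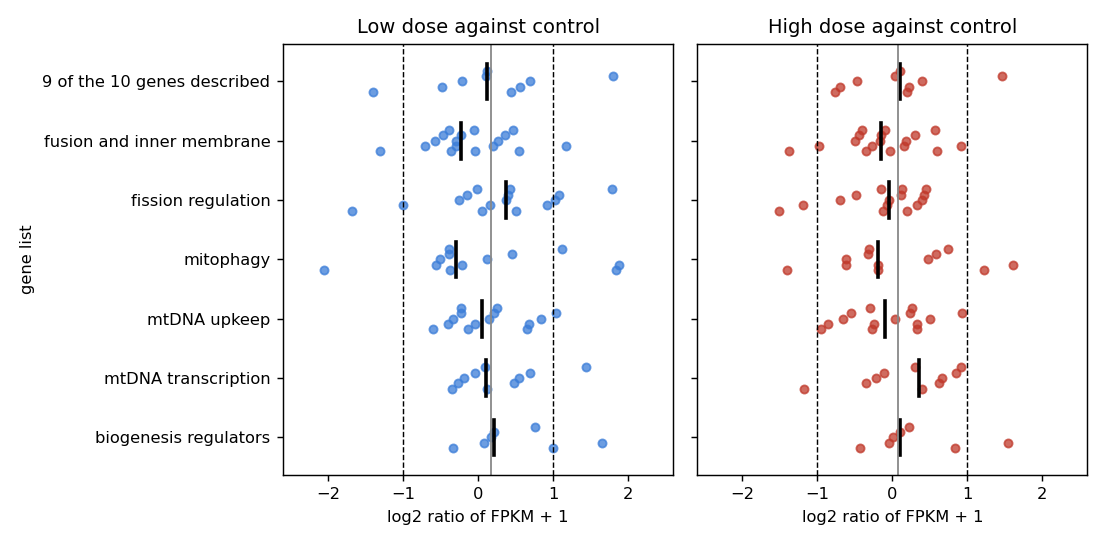
Log2 ratios of FPKM + 1 to control for the expressed genes of each list, low dose on the left and high dose on the right. Each point is a gene, black bars are list medians, the grey line is the median of all expressed symbols and dashed lines mark 2-fold. The medians of the 6 other lists lay between -0.30 and 0.37 at the low dose.

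Of 17 expressed genes of fusion and inner membrane shape, 1 was higher and 1 lower at the low dose, and 0 were higher and 1 lower at the high dose. Micos13 (listed as 2410015M20Rik), a subunit of the complex that forms cristae junctions, was at 124.6 FPKM in control, 49.9 FPKM at the low dose and 103.2 FPKM at the high dose (log2 ratios -1.30 and -0.27). Phb2, a prohibitin of the inner membrane, was at 33.7, 27.3 and 12.4 FPKM (log2 ratios -0.30 and -1.38). Pld6, a phospholipase of the outer membrane, was at 1.46, 4.51 and 3.63 FPKM (log2 ratios 1.16 and 0.91). The list median was -0.23 (low dose) and -0.15 (high dose), and Oma1 and Yme1l1, the proteases that cut Opa1, stayed within 2-fold.

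Fission regulators had 3 higher and 2 lower of 15 at the low dose, and 0 higher and 2 lower at the high dose. Marchf5 (listed as March5), an outer membrane ubiquitin ligase that acts on Dnm1l and its receptors, was at 162.3 FPKM in control, 50.1 FPKM at the low dose and 56.5 FPKM at the high dose, lower at both doses (log2 ratios -1.68 and -1.51). Mtfr1, a mitochondrial fission regulator, was at 27.3, 96.3 and 36.9 FPKM, higher at the low dose (1.78). Mtfr1l was at 7.03, 5.70 and 2.51 FPKM, lower at the high dose (-1.19). Senp5, a SUMO protease of Dnm1l, was at 5.26, 12.2 and 6.20 FPKM, higher at the low dose (1.07). The remaining calls were Mief1 (1.03 at the low dose, 0.77 by its largest row) and Mul1 (-1.004 at the low dose, -1.83 by its largest row).

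Mitophagy genes had 3 higher and 1 lower of 12 at the low dose, and 2 higher and 1 lower at the high dose. Ube2n, a ubiquitin-conjugating enzyme, was at 32.2 FPKM in control, 6.97 FPKM at the low dose and 11.5 FPKM at the high dose, lower at both doses (log2 ratios -2.06 and -1.41). Rhot1, the GTPase that links mitochondria to motors and is a target of Pink1, was at 14.1, 54.3 and 44.9 FPKM, higher at both doses (1.88 and 1.61). Bcl2l13, a mitophagy receptor, was at 5.08, 20.7 and 8.10 FPKM (1.83 and 0.58). These 3 genes had 2 or 3 rows each.

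Of 14 expressed genes of mtDNA replication and upkeep, 1 passed the rule at the low dose and 0 did so at the high dose. That gene was Lonp1, the matrix protease that degrades Tfam, at 5.65 FPKM in control, 12.6 FPKM at the low dose and 11.7 FPKM at the high dose (log2 ratios 1.03 and 0.93). The mtDNA polymerase genes Polg and Polg2 were under 1 FPKM in each library. In the transcription list, Slirp, an RNA-binding protein that stabilises mitochondrial mRNA, was at 288.6, 780.5 and 546.3 FPKM (1.43 and 0.92), and Mterf4, a factor of mitochondrial ribosome assembly, at 12.0, 11.7 and 4.78 FPKM (-0.04 and -1.17). Polrmt, the polymerase that works with Tfb2m, was at 3.14, 2.25 and 2.55 FPKM, within 2-fold. Among regulators of biogenesis, Pprc1, a coactivator related to PGC-1, was at 0.86, 4.85 and 4.39 FPKM (1.65 and 1.54), while Nrf1 was at 2.16, 2.55 and 2.40 FPKM.

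Few rows carried the name of an mtDNA transcript. Of 13 mRNAs, 5 had a row of that name and 2 were expressed. Rows without a name or with conflicting names were left out. Whether those rows hold transcripts of the mtDNA was not tested. mt-Co1, a subunit of cytochrome oxidase, was at 19.1 FPKM in control, 7.99 FPKM at the low dose and 7.61 FPKM at the high dose (log2 ratios -1.16 and -1.23). mt-Cytb was at 1.87 and 3.57 FPKM in the control and low dose libraries and near 0 in the high dose library, so no fold is given. Other rows held values as small as 8.5e-06 FPKM (mt-Nd2, control) and 1.9e-05 FPKM (mt-Nd5, high dose). How well any of these rows, mt-Co1 included, measures the transcripts of the mtDNA was not tested.

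For each gene past the rule against control, the 3 genes most alike were taken from the 75 expressed genes of the 6 lists, by the distance between their 2 log2 ratios to control. For Tfb2m these were Mtfr1 (0.21), Bcl2l13 (0.37) and Senp5 (0.73). For Fis1 they were Micos13 (0.22), Mul1 (0.58) and Dguok (0.79), the last a kinase that makes mtDNA precursors. For Opa1 they were Tomm20 (0.71), Mterf1b (0.75) and Tefm (0.89), none of which passed the rule. Both ratios share the control library, and the distances rest on 3 libraries. They were taken on FPKM + 1, which understates the change of a low gene such as Tfb2m. From control to the low dose, Tfb2m went from 0.33 to 3.63 FPKM and Mtfr1 from 27.3 to 96.3 FPKM. The distances of Opa1 used its summed rows, and its first row alone had log2 ratios of 0.38 and 0.15.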

How the data were processed

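Total RNA of oocytes was taken with Trizol and sequenced on Illumina libraries, per the labels' protocols, with groups from the exposure label and 1 library each. HISAT2, StringTie and the build mm10 are named in the submitters' processing notes. For versions, annotation and strand, nothing is given in the sources used here. Per the file headers, what the authors deposited is FPKM, as 1 table for each library, of 41258, 41310 and 41310 rows for control, low dose and high dose. Rows were joined by identifier, an absent row was taken as 0, 61 rows with conflicting names and 12426 without a name were left out, and FPKM was summed per gene name (Python 3.11.15, pandas 2.3.3). Log2 ratios used a pseudocount of 1 FPKM over the whole table. No count model was used on FPKM, and the ratio calculation, not the choice of 2-fold, was tested on simulated data. Reads per gene were estimated from annotated single-transcript rows and the longest coding transcript of GENCODE M21 (GRCm38, another name of mm10); molecules were not told apart from copies. All 10 genes were named; of each list, up to 4 expressed genes past the rule against control with the largest ratio were named, and 1 result is not reported here. Polg, Polg2, Polrmt, Nrf1, Oma1, Yme1l1, Mief1 and Mul1 were added after their values were seen. The genes and lists were chosen with earlier results of these data known. The trimmed mean left out 30% of ratios and 5% of levels at each end. Other pseudocounts, filters, scalings, thresholds and ways to treat rows were tried.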

Additional observations from a re-analysis of the deposited data

How the results depend on the processing

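No library could be left out, since each group had 1. No paired analysis was possible because each group held 1 library and the labels give no replicate numbers. The pseudocounts and scalings can move every ratio: of 120 log2 ratios of the 10 genes recomputed under these 4 settings, 102 kept their side of the rule and their sign, 3 fell under it, 3 came past it and 12 changed sign while under it. The 1 called ratio that reversed was Opa1 at high against low dose, -0.23 without its second row, an alternative chosen after seeing the data; without that row 0 genes were higher at the high dose against control or against the low dose, and the fusion over Dnm1l ratio at the high dose was 0.0925. Lowest and highest ratios over 9 settings other than the fold threshold were -1.61 and -1.22 for Fis1 and 0.70 and 3.11 for Tfb2m at the low dose, and 0.15 and 1.92 for Opa1 at the high dose.

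At the low dose, a pseudocount of 5 FPKM or a mean of at least 5 FPKM left 0 of the 10 genes higher, 1.5-fold gave 2 higher and 3-fold 0 lower. At the high dose against control, 3-fold left 0 higher, a pseudocount of 0.1 gave 1 lower (Mfn1, -1.03) and 1.5-fold 2 lower. At high against low dose, either scaling gave 2 higher, 1.5-fold 3 higher and 3-fold 0 higher, and 0 were lower with a pseudocount of 5, a mean of at least 5 FPKM or 3-fold. The share of all expressed symbols past the rule was 8.70, 12.7, 39.6 and 9.18% at the low dose with a pseudocount of 5, no filter, 1.5-fold and 3-fold. It was 6.36, 8.83, 31.6 and 6.58% at the high dose, where a pseudocount of 0.1 gave 22.5%, and 6.76, 29.9 and 7.60% at high against low dose with a pseudocount of 5, 1.5-fold and 3-fold. In the 6 lists at the low dose, 4 genes were higher with a pseudocount of 5, 6 with a mean of at least 5 FPKM, 5 under either scaling, 17 at 1.5-fold and 4 at 3-fold, where 2 were lower. At the high dose 6 were higher and 8 lower with a pseudocount of 0.1, 1 and 3 with one of 5, 12 and 12 at 1.5-fold, 1 and 0 at 3-fold, and 1 was higher with a mean of at least 5 FPKM. The worth of 1 read limits Pink1 and Tfb2m most, at 28 to 84 estimated reads where they were low.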

Other observations

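Within a chromosome, the assembler's numbering runs largely in order of position. This was read from assembled rows of genes with a single such row, each paired with the next row of that kind. Of 13601 pairs on 1 chromosome, 86.9% were in order. Other rows between them and pairs on different chromosomes were left out, so the share does not give how near the next number lies. Rows without a gene name next to the genes described may lie near them, but their places were not checked. The unnamed row just before Mff was at 3.21 FPKM in control, 17.4 FPKM at the low dose and 1.91 FPKM at the high dose, high at the low dose, where Mff itself was lowest. The unnamed row just after Dnm1l was at 7.18, 1.57 and 6.84 FPKM, low at the low dose, where Dnm1l was highest. The unnamed row after Pink1 was listed at 0 in control and at 2.27 and 2.08 FPKM at the low and high dose. The unnamed row just before Tfb2m was at 0.73, 1.44 and 0.41 FPKM, highest at the low dose, as Tfb2m was. The unnamed row after the second Opa1 row was at 0.083 and 1.64 FPKM in the control and low dose libraries and listed at 0 in the high dose library, where summed Opa1 was highest. What these 5 rows hold was not tested.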
